A study of Mus musculus with 18 samples.

Results

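A part of the genes of the Fanconi anemia pathway and the Brca repair genes was followed in hematopoietic stem cells (HSCs) of young and aged mice. The 10 genes were Fanca, Fancb, Fancc, Fancg, Fancl, Fancm, Fancd2, Fanci, Brca1 and Brca2, chosen by gene symbol among the 24421 genes of the count matrix, and all 10 were present. All animals carried the Hoxb5-tri-mCherry reporter on a C57BL/6J background and were untreated. Young animals were 2 to 3 months old and aged animals 23 to 25 months old. From c-Kit-enriched bone marrow of each age, bulk-HSCs (the HSC gate defined by surface markers), long-term HSCs (LT-HSCs, reporter positive) and short-term HSCs (ST-HSCs, reporter negative) were double sorted and sequenced, with 3 libraries for each of the 6 groups. The reporter is read from the Hoxb5 locus, so the split into LT-HSCs and ST-HSCs rests on that gene. The labels do not say how many animals went into a library or whether libraries came from separate animals, so the p-values measure only the spread between these libraries, which may be technical.

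The Fanconi anemia pathway repairs DNA interstrand crosslinks, lesions that join both strands and stop replication forks. Fancm recognises the stalled fork and recruits a core complex, whose subunit Fancl attaches ubiquitin to Fancd2 and Fanci, and the modified pair clamps on DNA and admits nucleases. The break made in this way is repaired by homologous recombination, in which Brca1 promotes resection of the ends and Brca2 acts after it. Inherited loss of pathway genes causes bone marrow failure, and mouse HSCs deficient in the pathway are often poor at reconstituting blood.

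Total counts ran from 16495048 to 22973844 per library, so that 3 counts were worth 0.132 to 0.176 CPM (counts scaled to library size with TMM factors). Hoxb5 lay between 8.2 and 40.3 CPM in LT-HSCs and between 0 and 4.56 CPM in ST-HSCs across ages, and Kit, the stem and progenitor receptor used for enrichment, lay between 1080 and 1570 CPM in every library. Of the markers of mature cells, Mpo, Cd3e, Cd3g, Cd8a, Ebf1, Pax5 and Ms4a1 had 0 CPM in all 18 libraries, and others were measured. The summed level was 0 to 18.2 CPM for 7 neutrophil genes, 10.6 to 29.2 CPM for 6 B cell genes (mostly Cd79b), 2.72 to 16.5 CPM for 5 T cell genes (mostly Lck) and 98.3 to 163 CPM for 5 macrophage genes (mostly Lyz2). Only 8 of these genes passed the filter on low counts, and with age over the fractions 0 of them passed the test of edgeR and 0 had an unadjusted p under 0.05. The sum of 7 erythroid genes was 0 to 10.4 CPM in young LT-HSCs and ST-HSCs, 6.68 to 25 CPM in the aged ones, 7.22 to 23.8 CPM in young bulk-HSCs and 19.4 to 50.1 CPM in aged bulk-HSCs, and 1 of them, the globin gene Hba-a2, which may share reads with its near-identical copy Hba-a1, passed as higher with age. Their part in the results was not tested. The young libraries missed more genes than the aged ones. Of 9653 genes whose median was 200 counts or more, 1 to 163 were at 0 in a young library and 2 to 6 in an aged library. Of the 10 repair genes, 4 were at 0 in at least 1 library, against 23.6% of the 12808 genes tested, and all these zeros fell in young libraries. Whether such a 0 is an absent transcript or a failed estimate was not tested.

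The repair genes were expressed at low level. Per kilobase of merged exon, Fancg was the most abundant with 6.21 ± 2.22 CPM per kb (SD, n = 18), followed by Fancl with 4.15 ± 1.73 and Brca2 with 3.87 ± 1.32. Brca1 (2.80), Fancm (2.62), Fancc (2.56), Fancb (1.60) and Fanci (1.41 CPM per kb) came next. Fanca (0.714 CPM per kb) and Fancd2 (0.588) were the lowest. All 10 were below the median of 7.19 CPM per kb over the 12270 tested genes with an annotated length. With the length of the longest transcript in place of the merged exons, Fancc moved from rank 6 to rank 2.

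**Figure D1:**
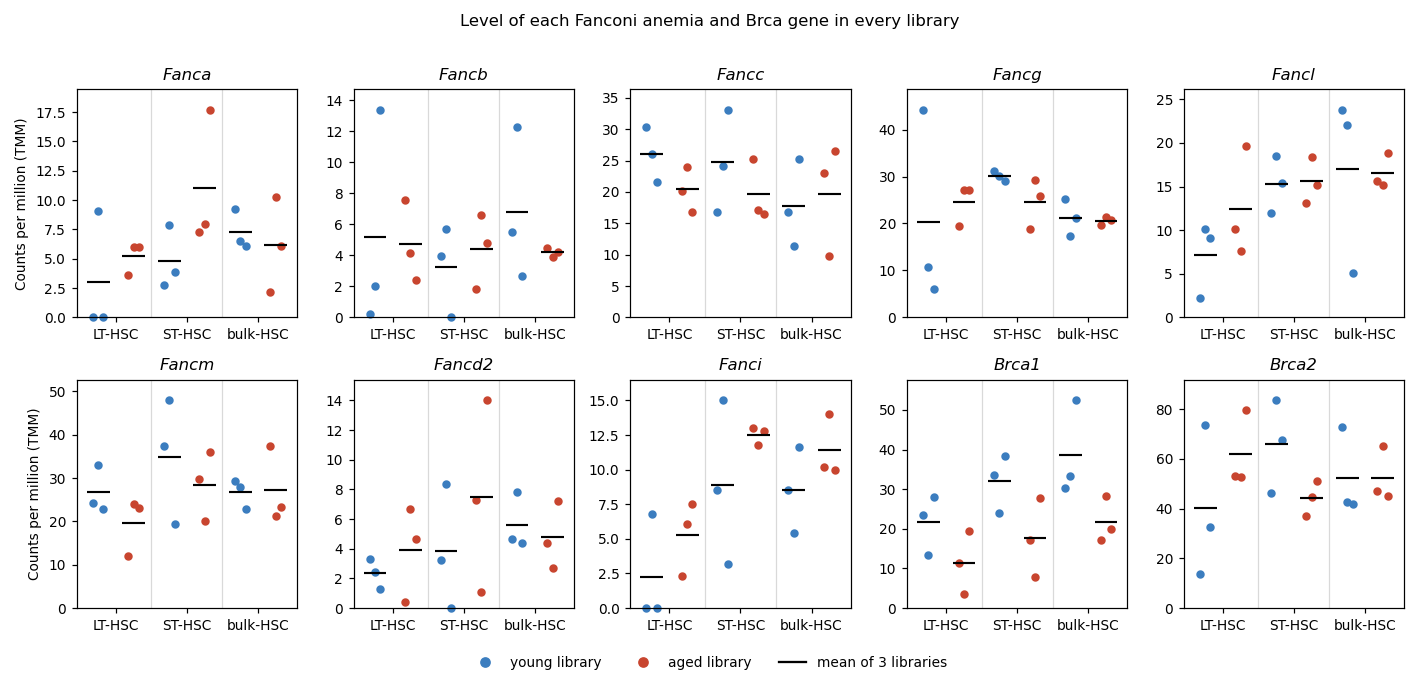
Level of each repair gene in CPM (vertical axes, linear from 0) in LT-HSCs, ST-HSCs and bulk-HSCs (horizontal axes); points are libraries, blue for young and red for aged, and bars are means of 3 libraries. Brca1 has its aged mean below its young mean in each fraction, and Fanca and Fanci are at 0 in young LT-HSC replicates 1 and 3.

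Brca1 (chr11:101488764-101551955, minus strand, GRCm38) had the lowest estimate of the 10 genes with age in each fraction. In LT-HSCs it had 23.6, 13.3 and 28.1 CPM in young replicates 1 to 3 and 11.3, 3.63 and 19.4 CPM in aged ones. The highest aged library was above the lowest young library, so the ages overlapped. In ST-HSCs the young libraries held 33.7, 24.0 and 38.3 CPM and the aged ones 17.1, 7.92 and 27.8 CPM, again with overlap. In bulk-HSCs the young libraries held 30.3, 33.3 and 52.4 CPM and the aged ones 17.2, 28.2 and 20 CPM. Here each aged library lay below each young one, which was true, in either direction, of 22.7% of all tested genes. The log2 fold change of aged over young cells was -0.92 (SE 0.51) for LT-HSCs, -0.86 (SE 0.51) for ST-HSCs and -0.83 (SE 0.51) for bulk-HSCs. Brca1 alone among the 10 had a value below 0 in each fraction, as did 18.1% of all tested genes.

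Averaged over the 3 fractions, the log2 fold change of Brca1 was -0.87 (SE 0.29, 95% confidence interval -1.49 to -0.25), and its adjusted p was 0.0915 in the quasi-likelihood F test of edgeR (Benjamini-Hochberg). The unadjusted p was 0.00861. Brca1 therefore did not pass the threshold of 0.05. As in every edgeR test over the fractions without a block, libraries of different fractions were fitted as independent. They may share animals, which the labels do not say. The call depended on the tool, on single libraries and on the model. DESeq2 gave -0.89 and an adjusted p of 0.0184, and leaving out aged LT-HSC replicate 3 gave -1.08 and 0.0385 in edgeR. Across 28 alternatives the adjusted p ran from 0.0184 to 0.932 and was under 0.05 in 3. The other of the 3 was a fit with the replicate number as a block that young and aged libraries shared. The fold change kept its sign (-1.08 to -0.21). Without the 3 young libraries that missed the most genes it was -0.65 (adjusted p = 0.263). The value nearest 0 came with a covariate for how many genes a library detected, which was 11548 to 13876 in young and 13526 to 14133 in aged libraries and so could barely be told apart from age.

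Mki67, the proliferation marker, and Top2a, the topoisomerase of dividing cells, fell with age in the same libraries. Mki67 lay between 122 and 371 CPM in young libraries and between 66.1 and 199 CPM in aged ones, and fell by 0.98 on the log2 scale (SE 0.22, adjusted p = 0.00929, edgeR quasi-likelihood F test, Benjamini-Hochberg). Top2a fell by 0.67 (SE 0.18, adjusted p = 0.0281, same test). The call of Mki67 held with each of the 18 libraries left out, and that of Top2a was lost without any of 7, namely young ST-HSC replicate 1, young LT-HSC replicate 3, young bulk-HSC replicate 3, aged LT-HSC replicates 1 and 2 and aged bulk-HSC replicates 1 and 3 (adjusted p up to 0.0644). Without the 3 young libraries that missed the most genes both missed the threshold, Mki67 at -0.71 (adjusted p = 0.0525) and Top2a at -0.49 (adjusted p = 0.125). Their part in the Brca1 values was not tested. In such sorted populations, fewer cells of a kind and less RNA per cell cannot be told apart.

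Brca2 (chr5:150522630-150570329, plus strand), in contrast to Brca1, had the same mean level at both ages. It held 13.6, 73.8 and 32.7 CPM in young LT-HSCs and 53.1, 52.9 and 79.8 CPM in aged LT-HSCs. The young LT-HSC libraries lay further apart than the aged ones, and the ages overlapped. In ST-HSCs it held 46.4, 83.5 and 67.6 CPM in young and 37.1, 44.7 and 51.1 CPM in aged libraries. Bulk-HSCs held 73.0, 42.7 and 41.8 CPM when young and 46.9, 65.0 and 45.1 CPM when aged. The mean was 52.8 CPM in young and 52.9 CPM in aged libraries, and the log2 fold change over the fractions was 0.02 (SE 0.24, 95% interval -0.49 to 0.52). The fractions moved in opposite directions, by 0.63 (SE 0.42) in LT-HSCs and -0.57 (SE 0.42) in ST-HSCs. The difference between these age effects was 1.20 (SE 0.59, 95% interval -0.04 to 2.44), and its adjusted p was 1 in the quasi-likelihood F test of edgeR, so it was not resolved. The unadjusted p was 0.0574.

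Of the core complex, Fanca (chr8:123268300-123318576, minus strand), a scaffold subunit, was at 0 in young LT-HSC replicates 1 and 3 and at 9.06 CPM (185 counts) in replicate 2. Its aged LT-HSC libraries held 3.65, 6.04 and 6.03 CPM. Young ST-HSCs held 2.79, 7.84 and 3.86 CPM and aged ST-HSCs 7.27, 7.96 and 17.7 CPM, the last being the highest Fanca value of all libraries. Bulk-HSCs ranged from 6.07 to 9.23 CPM when young and from 2.20 to 10.3 CPM when aged. With replicates this far apart, the age effect had wide intervals, at 0.79 in LT-HSCs (95% interval -2.15 to 3.73) and 0.58 over the fractions (-1.11 to 2.27).

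Fancl (chr11:26386135-26471876, plus strand), the ubiquitin ligase subunit, held 2.18, 10.1 and 9.14 CPM in young LT-HSCs and 10.1, 7.64 and 19.6 CPM in aged LT-HSCs. Young ST-HSCs held 12, 18.5 and 15.4 CPM, each above each young LT-HSC library. Young bulk-HSCs held 23.8, 22.1 and 5.09 CPM, and the third replicate fell among the LT-HSC values. The aged ST-HSC and bulk-HSC libraries lay between 13.1 and 18.8 CPM. Over the fractions, Fancl differed by 0.26 with age (95% interval -0.44 to 0.97).

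Fancg (chr4:43002343-43010506, minus strand), which binds Fanca, held 44.2, 10.7 and 6.09 CPM in young LT-HSCs, so that the highest and lowest values of all 18 libraries were replicates of 1 group. Outside that group its values were even, from 17.3 to 31.1 CPM, with young ST-HSCs at 31.1, 30.2 and 29.1 CPM. Its age effect over the fractions was -0.02 (95% interval -0.61 to 0.57), and 0.40 (adjusted p = 0.207) without young LT-HSC replicate 1.

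Fancc, Fancm and Fancb were the other core complex genes of the 10. Fancc (chr13:63285043-63497278, minus strand), which binds Fance and Fancf, lay between 9.77 and 33.1 CPM, and its 6 groups overlapped in every pair. Fancm (chr12:65075603-65132058, plus strand), the DNA translocase, lay between 11.9 and 47.9 CPM, again with overlap in every pair. Fancb (chrX:164980592-164997272, plus strand), a partner of Fancl, was at 0 in young ST-HSC replicate 3 and at 13.4 CPM in young LT-HSC replicate 3, its highest value. Fancc and Fancm had the narrowest age estimates over the fractions, at -0.18 (95% interval -0.65 to 0.29) and -0.24 (-0.67 to 0.20), while that of Fancb was -0.13 (-1.82 to 1.56).

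Fanci (chr7:79391929-79450264, plus strand) and Fancd2 (chr6:113531682-113597017, plus strand) form the pair that receives ubiquitin. Fanci followed Fanca in being at 0 in young LT-HSC replicates 1 and 3 and at 6.81 CPM in replicate 2. Aged LT-HSCs held 2.29, 6.04 and 7.55 CPM. Aged ST-HSCs held 13, 11.8 and 12.8 CPM, and all 3 were above all aged LT-HSC libraries. Fancd2 ranged from 1.29 to 3.32 CPM in young LT-HSCs, from 0 to 8.38 CPM in young ST-HSCs and from 4.39 to 7.85 CPM in young bulk-HSCs. Its aged libraries ran from 0.382 to 14 CPM, which spans all young values but a 0. The age effect over the fractions was 0.71 (95% interval -0.83 to 2.25) for Fanci and 0.48 (-1.18 to 2.14) for Fancd2.

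The question whether the repair genes changed with age was answered per fraction by a fit over the 12808 genes that averaged 1 CPM or more. In LT-HSCs, 0 of the 10 genes passed an adjusted p of 0.05 in edgeR's quasi-likelihood test, against 0.445% of all tested genes. In ST-HSCs it was 0 of 10 against 0.851%, in bulk-HSCs 0 of 10 against 1.98%, and over the fractions together 0 of 10 against 6.75%. At an unadjusted p under 0.05 the counts were 0, 0, 0 and 1, the last being Brca1, against 8.81%, 9.67%, 13.3% and 19.7% of all genes. DESeq2 called 1 gene over the fractions, also Brca1, and 0 in each fraction, and limma-voom called 0 in all 4. The shares of all genes that these tools called are not given here, so their counts cannot be read against the shares of edgeR. The median log2 fold change of the group with age was 0.45 (LT-HSCs), -0.13 (ST-HSCs), -0.041 (bulk-HSCs) and -0.00165 over the fractions, beside 0.036, 0.024, 0.031 and 0.037 for all tested genes. Values below 0 were found for 4, 5, 7 and 5 of the 10, against 46.3%, 47.5%, 47.0% and 45.3% of all genes. The libraries of the ages did not overlap for 0 genes in LT-HSCs and 0 in ST-HSCs, against 16.1% and 17.8% of all genes, and for Brca1 in bulk-HSCs.

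**Figure D2:**
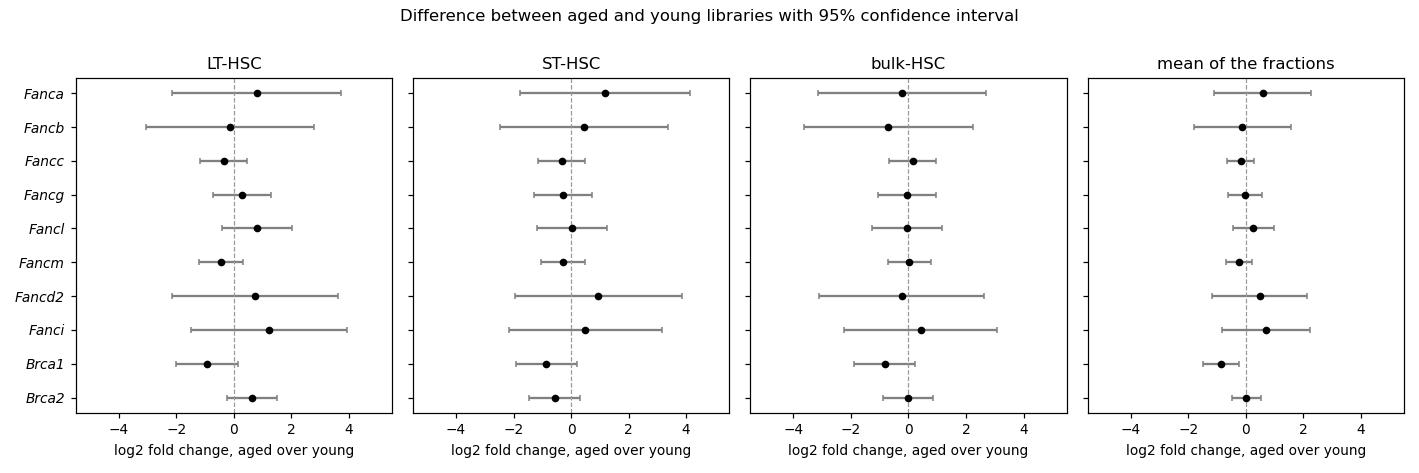
Log2 fold change of aged over young libraries (horizontal axes) for each repair gene by fraction and over the fractions together; points are estimates and bars 95% confidence intervals from edgeR. Over the fractions, the interval of Brca1 (-1.49 to -0.25) leaves out 0 and the other 9 intervals hold it.

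With all 18 libraries, Fanca and Fanci were not called with age in LT-HSCs (adjusted p = 0.971 and 0.922, edgeR quasi-likelihood F test). Calls of these genes appeared only when 1 library was left out. Without young LT-HSC replicate 2, the young LT-HSC group had no count of either gene, and both genes then passed the test with age in LT-HSCs (adjusted p = 0.00822 for Fanca and 0.00703 for Fanci, edgeR quasi-likelihood F test, Benjamini-Hochberg). The fitted fold changes against a group at 0 depend on the prior count and bound nothing. At 0 in both young LT-HSC replicates 1 and 3 were 2 of the 10 repair genes and 4.34% of all tested genes. Those libraries missed 46 and 163 of the 9653 well-counted genes, whereas replicate 2 missed 1. Their part in the zeros of Fanca and Fanci was not tested.

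Among young fractions, most of the 10 estimates for LT-HSCs were below 0. The estimate for LT-HSCs against ST-HSCs was below 0 in 8 of the 10 genes, with a median of -0.62, and 50.4% of all tested genes were below 0. Against bulk-HSCs it was again below 0 in 8 of 10, with a median of -0.61, and 49.8% of all genes were. The comparisons share the young LT-HSC libraries, of which replicates 1 and 3 missed 46 and 163 well-counted genes and had Fanca and Fanci at 0. Young ST-HSC replicate 3 missed 160 and had Fancb and Fancd2 at 0, and young bulk-HSCs missed 61, 29 and 67. The part of these missing genes was not tested. Without the 3 young libraries that missed the most genes, 9 of 10 (median -0.607) and 8 of 10 (median -0.788) were below 0. With the covariate for detected genes it was 7 of 10 (median -0.582) and 9 of 10 (median -0.654). With single libraries of the groups left out, 7 to 9 and 6 to 9 of the 10 genes were below 0. The medians were then -0.69 to -0.32 and -0.86 to -0.67. With only genes of at least 10 counts in every library, 5 of 6 (median -0.565) and 4 of 6 (median -0.225) were below 0. In limma-voom it was 9 of 10 (median -0.865) and 8 of 10 (median -1.12). Among aged fractions, where none of the 10 genes was at 0, the estimate for LT-HSCs was below 0 in 7 of 10 against ST-HSCs (median -0.43, all genes 48.4%) and in 6 of 10 against bulk-HSCs (median -0.26, all genes 49.1%). Between the young fractions, 0 of the 10 genes passed edgeR's test in either comparison (background 0.429% and 0.273%), and the unadjusted p was under 0.05 for 0 and 1 gene, against 10.4% and 11.5% of all genes. DESeq2 and limma-voom also called 0 in both. Low estimates in LT-HSCs were not particular to the repair genes. Against young ST-HSCs, 16 of 19 S phase genes (median -0.408) and 12 of 14 mitosis genes (median -0.365) were below 0. Against young bulk-HSCs it was 16 of 19 (median -0.456) and 13 of 14 (median -0.634). Of 7 further core complex genes, 3 were below 0 in each comparison. Between aged LT-HSCs and ST-HSCs, 19 of 19 S phase and 12 of 14 mitosis genes were below 0.

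Fancl, whose unadjusted p was 0.0478 against young bulk-HSCs, had a log2 difference of -1.10 (95% interval -2.33 to 0.13) to young ST-HSCs and of -1.25 (-2.49 to -0.01) to young bulk-HSCs, with adjusted p-values of 0.545 and 0.427 by edgeR's quasi-likelihood test. Its young LT-HSC and ST-HSC libraries did not overlap, as in 12.1% of all genes. Fanci had the lowest estimates, -1.96 (-4.72 to 0.79) and -1.90 (-4.65 to 0.85). Brca1 had -0.56 to young ST-HSCs and -0.84 to young bulk-HSCs, and Fancd2 by -0.72 and -1.26. For these 2 genes the young LT-HSC libraries all lay below the young bulk-HSC libraries, which held for 12.2% of all genes in either direction. Fancc was above 0 in both comparisons, Fancb against ST-HSCs and Fancm against bulk-HSCs. Fancc had a mean of 26.0 CPM in young LT-HSCs, 24.7 CPM in ST-HSCs and 17.8 CPM in bulk-HSCs, and its intervals held 0. Between young ST-HSCs and bulk-HSCs, 0 of 10 genes passed (background 0.164%) and 0 had an unadjusted p under 0.05 (background 9.63%), and Fancg alone did not overlap (background 10.9%). Fancg passed between young LT-HSCs and ST-HSCs without young LT-HSC replicate 1 (-1.84, adjusted p = 0.0332, edgeR's quasi-likelihood test), and Fanca and Fanci passed in both comparisons with LT-HSCs without replicate 2.

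**Figure D3:**
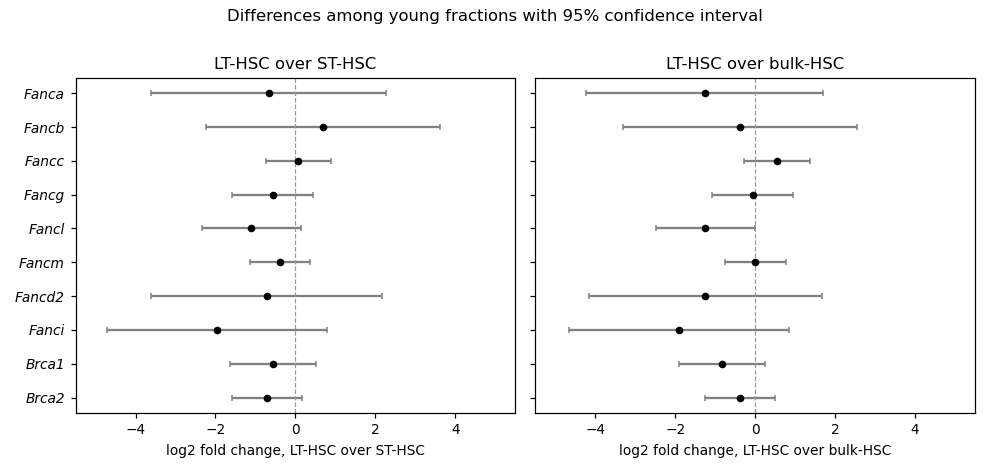
Log2 fold change of young LT-HSCs over young ST-HSCs (left) and over young bulk-HSCs (right) for each repair gene on the horizontal axes; points are estimates and bars 95% confidence intervals from edgeR. The estimates lie below 0 for 8 of 10 genes in each panel, and the interval of Fancl in the right panel (-2.49 to -0.01) alone leaves out 0.

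Among aged fractions, 0 of the 10 genes passed between LT-HSCs and ST-HSCs, LT-HSCs and bulk-HSCs or ST-HSCs and bulk-HSCs in edgeR (background 0.00781%, 0.0% and 0.0%), and 0 had an unadjusted p under 0.05 (background 3.41%, 3.29% and 2.7%). DESeq2 and limma-voom called 0 as well. Fanca and Fanci were lower in every aged LT-HSC library than in any aged ST-HSC library, and Brca2 was higher, so that 3 of 10 genes did not overlap, against 15% of all genes. The estimates were -1.07 (95% interval -4.01 to 1.88) for Fanca, -1.24 (-3.93 to 1.45) for Fanci and 0.48 (-0.39 to 1.36) for Brca2. Between aged LT-HSCs and bulk-HSCs, Fanci alone did not overlap (background 15.1%), and between aged ST-HSCs and bulk-HSCs 0 genes did so (background 14.5%). For differences of the age effect between fractions, 0 of the 10 genes passed in edgeR (background 0.0%, 0.00781% and 0.0625%). An unadjusted p under 0.05 was found for 0 in these 3 tests (background 3.92%, 5.82% and 5.78%). Differences were not excluded, as the 95% intervals for LT-HSCs against ST-HSCs were -4.73 to 3.54 for Fancb and -1.22 to 0.92 for Fancm. DESeq2 and limma-voom called 0 there too. When each gene's 6 groups were put in order of their mean level, no neighbouring groups were free of overlap in any of the 10 genes. The share over all tested genes was not computed, so this is a description and not a trait of these genes.

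The spread between replicates was widest in the least abundant repair genes. The biological coefficient of variation, edgeR's estimate of relative spread beyond counting error, was 1.09 for Fanca, 1.07 for Fancb, 1.05 for Fancd2 and 1.01 for Fanci. It was 0.501 for Fancl, 0.438 for Brca1, 0.419 for Fancg, 0.36 for Brca2, 0.35 for Fancc and 0.323 for Fancm. The median over all tested genes was 0.319. The SD of log2(CPM + 1) was wider in young than in aged libraries for 6, 7 and 6 of 10 repair genes (LT-HSCs, ST-HSCs and bulk-HSCs), beside 71.2%, 69.5% and 74.0% of all genes.

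**Figure D4:**
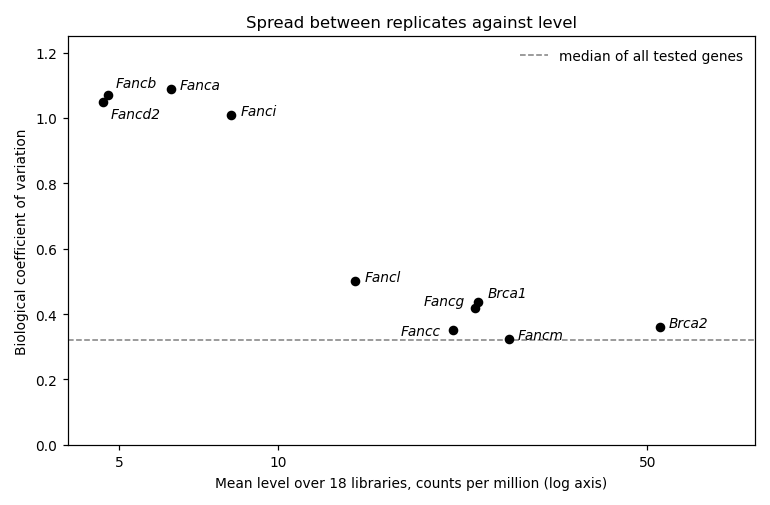
Biological coefficient of variation (vertical axis) against mean level over 18 libraries in CPM (horizontal log axis) for the 10 repair genes; the dashed line is the median of all tested genes (0.319). Fanca, Fancb, Fancd2 and Fanci, all below 10 CPM, lie above 1.

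The upstream sequences of the repair genes were read to see which carry the E2F-type motif of genes switched on at the entry to S phase. The letters TTTGGCGC, TTTCCCGC, TTTGCCGC and TTTCGCGC were searched on both strands in the 250 bases before the start in RefSeq (GRCm38.p6). The reverse of TTTGGCGC and the letters TTTCGCGC can share bases. An entry was found for 9 of the 10 genes, all but Fancd2. Of these 9, Brca2 and Fancg held a match, beside 583 of 27025 genes in all (2.16%), and Brca1 held none. Among the S phase genes 6 of 17 held a match. The sequences of Brca1, which was nearest to a change with age, of the members with a match and of the replicative helicase gene Mcm6, which fell with age, are given 5′ to 3′ on the strand of the gene, with matched letters in capitals. The Brca2 stretch (chr5:150522371-150522620, plus strand) and the Mcm6 stretch (chr1:128359706-128359955, minus strand) are whole. The Brca1 stretch (chr11:101551956-101552148, minus strand) begins next to an exon of its neighbour Nbr1 and runs to the start of Brca1. The Fancg stretch (chr4:43010335-43010364, minus strand) is the 30 bases around the match. It lies before the RefSeq start but within the GENCODE span of Fancg given above. Its window holds annotated exon bases of Fancg, so the match is not upstream of the gene in both annotations.
Brca1: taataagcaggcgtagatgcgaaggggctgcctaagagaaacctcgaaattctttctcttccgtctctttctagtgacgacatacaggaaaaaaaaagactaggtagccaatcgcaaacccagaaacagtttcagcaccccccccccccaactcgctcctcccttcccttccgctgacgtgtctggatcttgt
Brca2: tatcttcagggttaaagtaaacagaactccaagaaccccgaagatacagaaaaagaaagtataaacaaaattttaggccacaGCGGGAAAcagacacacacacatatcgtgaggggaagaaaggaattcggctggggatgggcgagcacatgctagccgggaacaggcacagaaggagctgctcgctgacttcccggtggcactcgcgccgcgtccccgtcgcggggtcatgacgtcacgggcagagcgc
Fancg: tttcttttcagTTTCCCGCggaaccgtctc
Mcm6: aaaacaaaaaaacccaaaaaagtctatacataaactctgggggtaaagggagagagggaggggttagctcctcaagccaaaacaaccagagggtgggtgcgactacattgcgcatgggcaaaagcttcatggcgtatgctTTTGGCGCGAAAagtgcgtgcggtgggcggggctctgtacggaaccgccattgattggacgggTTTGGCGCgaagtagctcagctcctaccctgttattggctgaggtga
The match of Brca2 was on the opposite strand, as the reverse of TTTCCCGC, and that of Fancg on the strand of the gene. Mcm6 held 3 matches, of which 2 overlapped. With age over the fractions, Brca2 had a log2 fold change of 0.02, Fancg of -0.02 and Mcm6 of -0.66. A match in these letters is a description and not a binding site.

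Other genes of the Fanconi anemia pathway and of DNA repair are read against the shares of all tested genes. These were 6.75% called over the fractions and 19.7% with an unadjusted p under 0.05. Over the fractions together, 0 of 7 further core complex genes, 0 of 3 genes that add or remove ubiquitin on Fancd2 and Fanci and 0 of 11 incision and bypass genes passed edgeR's test. At an unadjusted p under 0.05 the counts were 0, 2 and 2, and DESeq2 and limma-voom called 0, 1 and 0 genes, in both the gene Ube2t. The shares of all genes that these 2 tools called are not given here. Ube2t, which hands ubiquitin on within the Fancl reaction, had an estimate of -1.41 in edgeR (SE 0.51, adjusted p = 0.121), singled out after its values were seen. Its mean level was 9.49 CPM in young and 3.35 CPM in aged LT-HSCs, 11.4 and 4.57 CPM in ST-HSCs, and 11.2 and 4.2 CPM in bulk-HSCs (n = 3 each). Of 24 recombination partners, Rfwd3 alone passed, with a fold change of -0.39 (SE 0.10). Of 10 checkpoint and single-strand binding genes, Topbp1 (-0.30, SE 0.09) and Rpa2 (-0.63, SE 0.16) passed, and of 9 end-joining genes Xrcc6 passed with -0.43 (SE 0.12). Of the 18 libraries left out singly, 14 ended the call of Topbp1, 8 that of Rpa2, 13 that of Xrcc6 and 0 that of Rfwd3. Limma-voom lost Topbp1 and Xrcc6 (adjusted p = 0.051 and 0.0574). Without the 3 young libraries that missed the most genes, Rfwd3 had -0.35 (adjusted p = 0.0495) and the other calls were lost, and with the covariate for detected genes all 4 were lost (adjusted p of Rfwd3 0.773).

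The genes of DNA replication and mitosis, in contrast, had values below 0 in edgeR without a covariate. All 19 tested S phase genes were below 0, with a median of -0.52, and 6 fell with an adjusted p under 0.05, namely Mcm2, Mcm3, Mcm4, Mcm5, Mcm6 and Chaf1a. Of all tested genes, 45.3% were below 0 and 6.75% were called, 308 of the 864 calls being lower. The helicase gene Mcm6 had 218 ± 18.4 CPM in young and 129 ± 31.0 CPM in aged LT-HSCs (SD, n = 3), and fell by 0.66 on the log2 scale over the fractions (SE 0.11, adjusted p = 0.000855, edgeR's quasi-likelihood test). Mcm3 fell by 0.59 and Chaf1a, a chromatin assembly factor, by 0.88. All 14 mitosis genes were below 0, with a median of -0.67, and Mki67 and Top2a passed. Rrm2, the nucleotide reductase subunit, had -0.11 (SE 0.36). In single fractions, edgeR called 0 genes of either list. The unadjusted p was under 0.05 for 5, 7 and 8 S phase genes and for 2, 0 and 3 mitosis genes (LT-HSCs, ST-HSCs and bulk-HSCs), each of them lower with age. Without the 3 libraries with the most missing genes, 6 S phase genes and 0 mitosis genes passed, and with the covariate for detected genes 0 and 0 did. S phase genes were below 0 in 19 of 20 tested (median -0.39) without those libraries, in 19 of 19 (-0.30) with the covariate and in 17 of 19 (-0.48) in limma-voom. For mitosis genes the counts were 10 of 14 (-0.31), 7 of 14 (-0.0095) and 9 of 14 (-0.42). Brca1, at -0.87, lay within the range of these lists, and the median of the 10 repair genes was -0.00165.

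**Figure D5:**
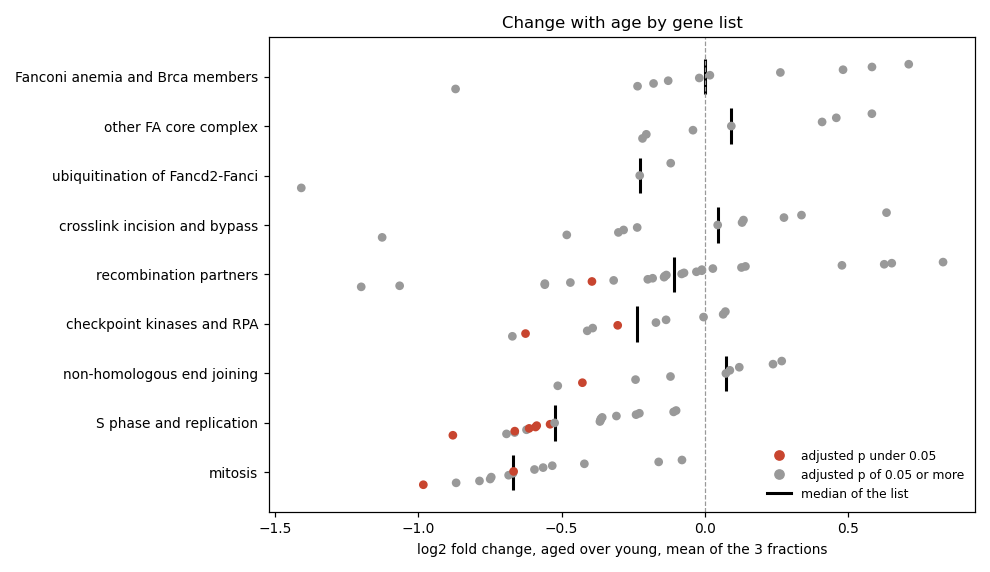
Log2 fold change of aged over young libraries over the fractions together (horizontal axis) for each tested gene of 9 lists (rows); red points have an adjusted p under 0.05, grey points do not, and black bars are list medians. The medians are -0.00165 for the repair genes, -0.52 for S phase and -0.67 for mitosis.

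The repair genes differed in how alike their profiles over the 18 libraries were. Each gene's log2 CPM was centred and scaled to an SD of 1, so that genes can be compared by the root mean square difference of their profiles, with 0 for equal profiles. Fanca and Fanci were the most alike at 0.529, and Fancb and Fancc the least alike at 1.73. The genes nearest to the mean profile of the group, among 9706 others with a median of 1.36, were Syncrip (0.541), Capza1 (0.543), Sbk1 (0.566), Gbe1 (0.603) and Msantd4 (0.609). All profiles come from the same libraries, in which the missing genes of the young libraries are shared.

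Several repair genes overlap a gene on the opposite strand, and whether counting used strand is not stated. Fanca shares 920 exon bases with Zfp276, Fanci 921 with Polg, Fancl 462 with Vrk2, Fancd2 257 with Fancd2os and Fancc 185 with 2010111I01Rik. With genes absent from the count matrix, Fancc shares 1373 (Gm16133), Fancm 575 (Gm47870) and 163 (Gm47869), and Brca2 41 (Gm42529). Zfp276 and Polg were counted in every library, with 225 and 806 counts in young LT-HSC replicate 3, where Fanca and Fanci were at 0. Of the partners, Zfp276, Polg, Vrk2 and 2010111I01Rik were tested, and none passed the test with age in any fraction or over the fractions. Fancd2os had 0 counts in all but 3 libraries, with 11 counts at most. Vrk2 had 0 counts in young bulk-HSC replicate 1, where Fancl had its highest value (23.8 CPM). The part of the overlaps in the member counts was not tested.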

How the data were processed

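RNA was sequenced from 18 libraries, and all were used. The authors aligned reads to mm10 with HISAT2 and assembled and quantified transcripts in each sample with StringTie 1.3.4d, and they deposited whole-number counts per gene, not normalized. The annotation and the strand setting were not given in the sources used here. Because transcripts are assembled per library, a count of 0 can be a failed estimate.

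The 12808 genes that averaged 1 CPM or more after TMM scaling were fitted with edgeR 4.0.16 (glmQLFit and glmQLFTest) in R 4.3.3, with 6 group means and no covariate, in 13 contrasts, and p-values were adjusted over all tested genes by the Benjamini-Hochberg method. The scripts were tested on simulated data. Alternatives were DESeq2 1.42.0, limma 3.58.1 (voom with sample quality weights), other normalizations and filters, a replicate block, a covariate, and leaving out libraries. One, leaving out the 3 young libraries with the most missing genes, was chosen after seeing the data. Lengths and positions came from GENCODE M21 and promoters from RefSeq.

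The members and gene lists were chosen with earlier results of these data known. All members are named, and from other lists up to 3 called genes with the smallest p, plus Mki67, Top2a, Mcm2 and Rrm2. The other called S phase genes were named after their values were seen. Intervals and floors cover the fitted spread and counting error only.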

Additional observations from a re-analysis of the deposited data

How the results depend on the processing

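The count of repair genes called was 0 in all 13 comparisons and equal to 0 in 240 of 250 alternative counts. With age over the fractions it was 1 with the replicate block and 1 with DESeq2 (Brca1 in both), and 0 to 2 when libraries were left out in turn. The shares of all genes called in these alternatives are not given here. Leaving out libraries also gave 0 to 2 with age in LT-HSCs, 0 to 2 between young LT-HSCs and young ST-HSCs, 0 to 2 between young LT-HSCs and young bulk-HSCs, 0 to 1 for the age effect of LT-HSCs against ST-HSCs and 0 to 2 against bulk-HSCs. The highest value came each time without young LT-HSC replicate 2, which held the only young LT-HSC counts of Fanca and Fanci. The replicate number as a block gave Brca1 -0.90 with an adjusted p of 0.0381 in edgeR's quasi-likelihood test. That block joined young and aged libraries of the same number, so it is not a fit of libraries paired within an age. The correlation of same-numbered libraries of an age was not over 0.1 in every pair (-0.0443 to 0.124). The numbers were therefore not taken as pairs. As a hint from the data and not the design, 12 of 18 libraries were most like their own number. Same-numbered LT-HSC and ST-HSC libraries of an age correlated at 0.0175 to 0.124, and other-numbered ones at -0.111 to 0.0281. A pairing of LT-HSC with ST-HSC libraries therefore remains possible.

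Of 497 alternative fold changes of named comparisons, 460 kept sign and side, 11 passed the threshold and 26 changed sign, none of these with an adjusted p under 0.05. The cause of these changes was not tested. With detected genes per library as covariate the age estimate was -1.28 for Fanca, -1.61 for Fancd2, -1.29 for Fanci, 0.0097 for Fancg and -0.34 for Brca2. Fancb turned to 0.53 in limma-voom, to 0.28 without the 3 libraries missing most genes and lay between -0.33 and 0.60 with single libraries left out. Fancg turned to 0.051 with the replicate block, 0.090 in limma-voom and lay between -0.16 and 0.40 with single libraries left out. Brca2 turned to -0.019 by library size alone, -0.065 without the 3 libraries and lay between -0.12 and 0.28 with single libraries left out.

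Depth allowed 0.132 to 0.176 CPM for a count of 3.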
